A study of Mus musculus with 12 samples.

Results

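The genes described here were 10 CC chemokines, Ccl2, Ccl3, Ccl4, Ccl5, Ccl6, Ccl7, Ccl9, Ccl12, Ccl22 and Ccl24, in total RNA from bone marrow-derived macrophages (BMDMs). They were taken as a list of symbols. All 10 were found in the count table of 48526 genes, and all 10 passed the filter on low counts, which left 15523 genes for testing. BMDMs are macrophages grown from mouse bone marrow, here for 6 d in medium with L929-conditioned supernatant. The cells came from homozygous HSS9 KO mice or from wild-type (WT) controls, all of them males of 7 to 10 weeks of age. HSS9 is an enhancer that lies before Tnf, which encodes tumor necrosis factor alpha, and every cell of the animal carries the deletion. The KO line was kept as homozygous pairs. The labels call the WT mice littermates, whereas the methods describe purchased C57BL/6 mice. Cells received PBS (UT) or lipopolysaccharide (LPS), a component of the bacterial outer membrane, for 6 hr. This gave 4 groups of 3 libraries, WT UT, WT LPS, KO UT and KO LPS, with total counts from 26154533 to 36423921 per library.

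CC chemokines are small secreted proteins that guide leukocytes along concentration gradients. They act through G protein-coupled receptors of the CCR family on the responding cell. Macrophages exposed to bacterial products are a major source of them, and they draw monocytes, neutrophils, T cells and eosinophils to sites of infection. The members fall into groups by receptor. Ccl2, Ccl7 and Ccl12 are monocyte chemoattractants that act on Ccr2. Ccl3, Ccl4 and Ccl5 are inflammatory chemokines that attract monocytes and T cells, and Ccl3 and Ccl5 act on Ccr1. Ccl6 and Ccl9 are also ligands of Ccr1. Ccl22 acts on Ccr4, a receptor of T cell subsets, and Ccl24 on Ccr3, a receptor of eosinophils.

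In the GENCODE annotation of GRCm38, 8 of the 10 genes lie on chromosome 11 in a pair of clusters, and all 10 are protein coding. The first cluster holds Ccl2 (ENSMUSG00000035385.5, chr11:82035571-82037453, plus strand), Ccl7 (ENSMUSG00000035373.2, chr11:82045712-82047525, plus strand) and Ccl12 (ENSMUSG00000035352.3, chr11:82101845-82103400, plus strand). The other cluster holds Ccl5 (ENSMUSG00000035042.2, chr11:83525778-83530518, minus strand), Ccl9 (ENSMUSG00000019122.8, chr11:83572919-83578636, minus strand) and Ccl6 (ENSMUSG00000018927.3, chr11:83587882-83593087, minus strand). It continues with Ccl3 (ENSMUSG00000000982.5, chr11:83647844-83649355, minus strand) and Ccl4 (ENSMUSG00000018930.3, chr11:83662584-83664683, plus strand). Ccl24 (ENSMUSG00000004814.10, chr5:135569937-135573049, minus strand) and Ccl22 (ENSMUSG00000031779.3, chr8:94745590-94751699, plus strand) lie apart. Ccl2 overlaps Gm17268 and Ccl6 overlaps E230016K23Rik, both on the opposite strand and with 0 shared exon bases. Of the exonic 50-base words of each member, 0 occurred in another gene for 9 members, whereas 59 of the 2996 words of Ccl9 did.

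Upstream sequences from RefSeq (GRCm38.p6) were on hand for 5 of the 10 members, and 4 of them are shown because their genes span the range of responses to LPS. Each is the 250 bases before the RefSeq start, 5′ to 3′ on the strand of the gene. Ccl12 (chr11:82101595-82101844, plus strand) and Ccl3 (chr11:83649379-83649628, minus strand) were strongly raised by LPS. Ccl9 (chr11:83578637-83578886, minus strand) was moderately raised, and its neighbor Ccl6 (chr11:83593088-83593337, minus strand) was nearly level. Capitals mark matches to any of 4 motifs on either strand, the NF-kappaB consensus, AP-1 (TGANTCA), an IRF motif (GAAA repeated after 2 further bases) and the TATA box (TATAAA).
Ccl12: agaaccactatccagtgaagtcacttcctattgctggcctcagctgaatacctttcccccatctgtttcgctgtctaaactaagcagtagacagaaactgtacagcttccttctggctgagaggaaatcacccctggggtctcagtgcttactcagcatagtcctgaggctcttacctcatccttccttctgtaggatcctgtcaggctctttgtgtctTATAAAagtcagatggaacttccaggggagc
Ccl3: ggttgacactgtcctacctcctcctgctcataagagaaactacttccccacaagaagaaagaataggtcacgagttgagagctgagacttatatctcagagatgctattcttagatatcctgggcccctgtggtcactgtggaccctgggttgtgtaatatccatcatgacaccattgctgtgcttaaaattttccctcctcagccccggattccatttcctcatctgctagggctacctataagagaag
Ccl9: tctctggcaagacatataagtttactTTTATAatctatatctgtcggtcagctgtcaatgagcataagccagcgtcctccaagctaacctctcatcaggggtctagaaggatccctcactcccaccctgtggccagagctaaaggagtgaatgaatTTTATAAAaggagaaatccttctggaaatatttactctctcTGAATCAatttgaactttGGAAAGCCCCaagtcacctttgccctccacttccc
Ccl6: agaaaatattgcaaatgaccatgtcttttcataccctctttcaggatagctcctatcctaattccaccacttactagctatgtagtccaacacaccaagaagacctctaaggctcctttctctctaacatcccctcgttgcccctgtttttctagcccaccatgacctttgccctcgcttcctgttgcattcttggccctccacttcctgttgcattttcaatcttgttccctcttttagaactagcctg
Counted back from the start, the Ccl12 sequence had a TATA box at -31 to -26. The Ccl9 sequence had a match to the NF-kappaB consensus at -35 to -26, an AP-1 match at -53 to -47, and TATA matches on both strands, of which those at -94 to -89 and -92 to -87 overlap. The Ccl3, Ccl6 and Ccl22 sequences held none of the 4 motifs in these letters. Over 32851 upstream windows of the same length, 7.25% held the NF-kappaB consensus, 6.75% AP-1, 2.98% the IRF motif and 12.4% TATAAA. The matches are descriptions of sequence and were not read as binding sites.

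The transcripts also differed in ATTTA, the core of AU-rich elements, which are known in cytokine mRNAs. In the 3′ UTR of the longest coding transcript, Ccl12 had 5 copies of ATTTA in 167 bases and Ccl3 had 5 in 409 bases. Ccl9 also had 5 copies, but in 2465 bases. Ccl6 had 4, Ccl4, Ccl7 and Ccl22 had 2 each, Ccl2 had 1, and Ccl5 and Ccl24 had 0. The longer form TATTTAT was present in 4 members, Ccl3, Ccl4, Ccl12 and Ccl22. It was present in 27.4% of 21020 genes with a 3′ UTR, and in 13.8% of the 7770 genes whose 3′ UTR was 200 to 1000 bases long. Of the members with it, Ccl3 and Ccl4 lie in that range of lengths, but Ccl12 (167 bases) and Ccl22 (1813 bases) do not. Ccl5 and Ccl9, which lack it, lie outside the range too.

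Library quality was read before the comparisons. Summed macrophage markers (Adgre1, Csf1r, Cd68, Itgam, Cd14, Lyz2, Mertk and Fcgr1) were at 28908 to 29983 CPM in WT UT, 33310 to 34417 in KO UT, 27940 to 29482 in WT LPS and 30233 to 32099 in KO LPS, where CPM is a count scaled to the library total and to the TMM factor. Summed neutrophil markers ranged from 20.5 to 22.0 CPM in WT UT, 42.6 to 48.1 in KO UT, 50.5 to 79.6 in WT LPS and 67.3 to 76.8 in KO LPS, and Ly6g, which defines neutrophils, was at 0 counts in every library. The single neutrophil markers moved in both directions with LPS. Of the 6 tested, 3 were higher and 3 lower in WT, and 2 were higher and 4 lower in KO. S100a8 had 321, 327 and 340 counts in WT UT and 1110, 1103 and 1428 in WT LPS. S100a9 had 460, 475 and 551 counts in WT UT and 138, 128 and 156 in WT LPS. Stromal markers summed to 8.43 to 8.51 CPM in WT UT, 12.3 to 12.8 in KO UT, 25.3 to 26.8 in WT LPS and 37.8 to 38.4 in KO LPS. Of the 7 stromal markers tested, 3 were higher and 4 lower in WT LPS than in WT UT. In KO, 5 were higher and 2 lower. Pdgfrb had 45, 48 and 37 counts in WT UT and 531, 443 and 421 in WT LPS. Col1a1 had 30, 30 and 41 counts in WT UT and 10, 8 and 3 in WT LPS. B cell markers summed to 19.2 to 21.8 CPM in WT UT, 38.2 to 40.2 in KO UT, a mean of 1.29 in WT LPS and 1.68 to 1.88 in KO LPS. Eosinophil, basophil and mast cell markers summed to 0.838 to 1.15 CPM in WT UT, 1.88 to 2.23 in KO UT, 0.848 to 1.38 in WT LPS and 2.03 to 2.42 in KO LPS. T cell markers summed to 1.81 to 2.70 CPM in WT UT and 2.73 to 3.61 in KO UT, at most 9.42 after LPS, and dendritic cell markers at most 3.34, with Cd3e and Epx at no more than 1 count. Small structured RNAs took a share of counts that moved with the groups. This share was 3.00 to 3.25% in WT UT, 6.62 to 7.83% in KO UT and 3.23 to 3.39% in KO LPS, but 4.04, 5.36 and 6.88% in WT LPS replicates 1, 2 and 3. Tnf, the readout of the deletion, was lower in KO after LPS (log2 difference -1.04 with SE 0.0604, adjusted p 2.76e-10 by edgeR).

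The first comparison asked how each member responded to LPS in each genotype. Calls required an absolute log2 fold change above 1 together with an edgeR adjusted p below 0.05. Of the 10 members, 9 were called higher after LPS in WT and 9 in KO, and the exception was Ccl6 in both. Over all genes tested, 19.1% were called higher in WT and 17.7% in KO. The median log2 fold change of the members was 7.07 in WT and 6.74 in KO, against 0.047 and -0.055 over all genes. Upper-quartile scaling moved that median of all genes by -0.18 in either genotype.

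The monocyte chemoattractants were low without LPS, Ccl12 being near the detection limit, and abundant with it. Ccl7 had 38, 53 and 59 counts in WT UT, 0.889 to 1.25 CPM, and was at 329, 369 and 398 CPM in WT LPS, a log2 fold change of 8.36 (SE 0.133, edgeR adjusted p 1.45e-22). Ccl12 counts were 4, 25 and 12 without LPS in WT, and with LPS they were 1834, 1578 and 1770, a log2 fold change of 7.92 (SE 0.200, edgeR adjusted p 3.06e-19). The ratio of its highest to its lowest UT library was wider than for any other member. Ccl2 went from 2.81, 3.09 and 2.38 CPM to 311, 365 and 356 CPM in WT, a log2 fold change of 6.96 (SE 0.130, edgeR adjusted p 1.62e-21). In KO the log2 fold changes of Ccl7, Ccl12 and Ccl2 were 7.49, 7.84 and 6.74.

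Ccl3, Ccl4 and Ccl5 reached the highest levels among the strongly induced members. In WT, Ccl3 was at 10.3 ± 0.782 CPM without LPS and 1498 ± 131 CPM with it, and in KO at 10.1 ± 0.400 and 1085 ± 22.1 CPM (each SD, n = 3), log2 fold changes of 7.18 and 6.74. For Ccl4 the WT levels were 10.3 ± 0.818 and 1750 ± 269 CPM, and the KO levels 12.7 ± 0.881 and 1442 ± 109 CPM (each SD, n = 3), log2 fold changes of 7.41 and 6.82. For Ccl5 the larger response was that of KO, with log2 fold changes of 7.83 in WT and 8.33 in KO. Every LPS library lay above every UT library for these genes.

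Ccl9 and Ccl6 were already abundant without LPS. Ccl9 had 937 to 951 CPM in WT UT and 7022 to 7367 CPM in WT LPS, a log2 fold change of 2.92 (SE 0.0478, edgeR adjusted p 2.20e-22), and 2.90 in KO. Ccl6 was the member that hardly moved. It had 99.5, 107 and 102 CPM in WT UT and 105, 107 and 109 CPM in WT LPS (log2 difference 0.063 with SE 0.0523, 95% interval -0.046 to 0.17, adjusted p 0.287 by edgeR). The WT libraries overlapped, and under upper-quartile scaling the sign of this change turned (-0.12, edgeR adjusted p 0.0421), whereas with protein-coding genes only it was 0.14 (edgeR adjusted p 0.0157). In KO, Ccl6 fell by 0.17 on the log2 scale (SE 0.0524, edgeR adjusted p 0.00634), which is far from the fold change threshold. Under upper-quartile scaling the change in KO was -0.35 (edgeR adjusted p 3.44e-06), and with the small structured RNA covariate it was -0.14 (edgeR adjusted p 0.334).

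Ccl22 and Ccl24 were low without LPS and were the lowest members with it. Ccl22 rose from 1.66 to 2.49 CPM in WT UT to 34.4 to 48.5 CPM in WT LPS, and the log2 fold changes were 4.31 in WT and 4.53 in KO. Ccl24 had 14, 11 and 16 counts in WT UT and 145, 117 and 123 in WT LPS, and the log2 fold changes were 4.16 in WT and 3.26 in KO. All of these increases were called.

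**Figure D1:**
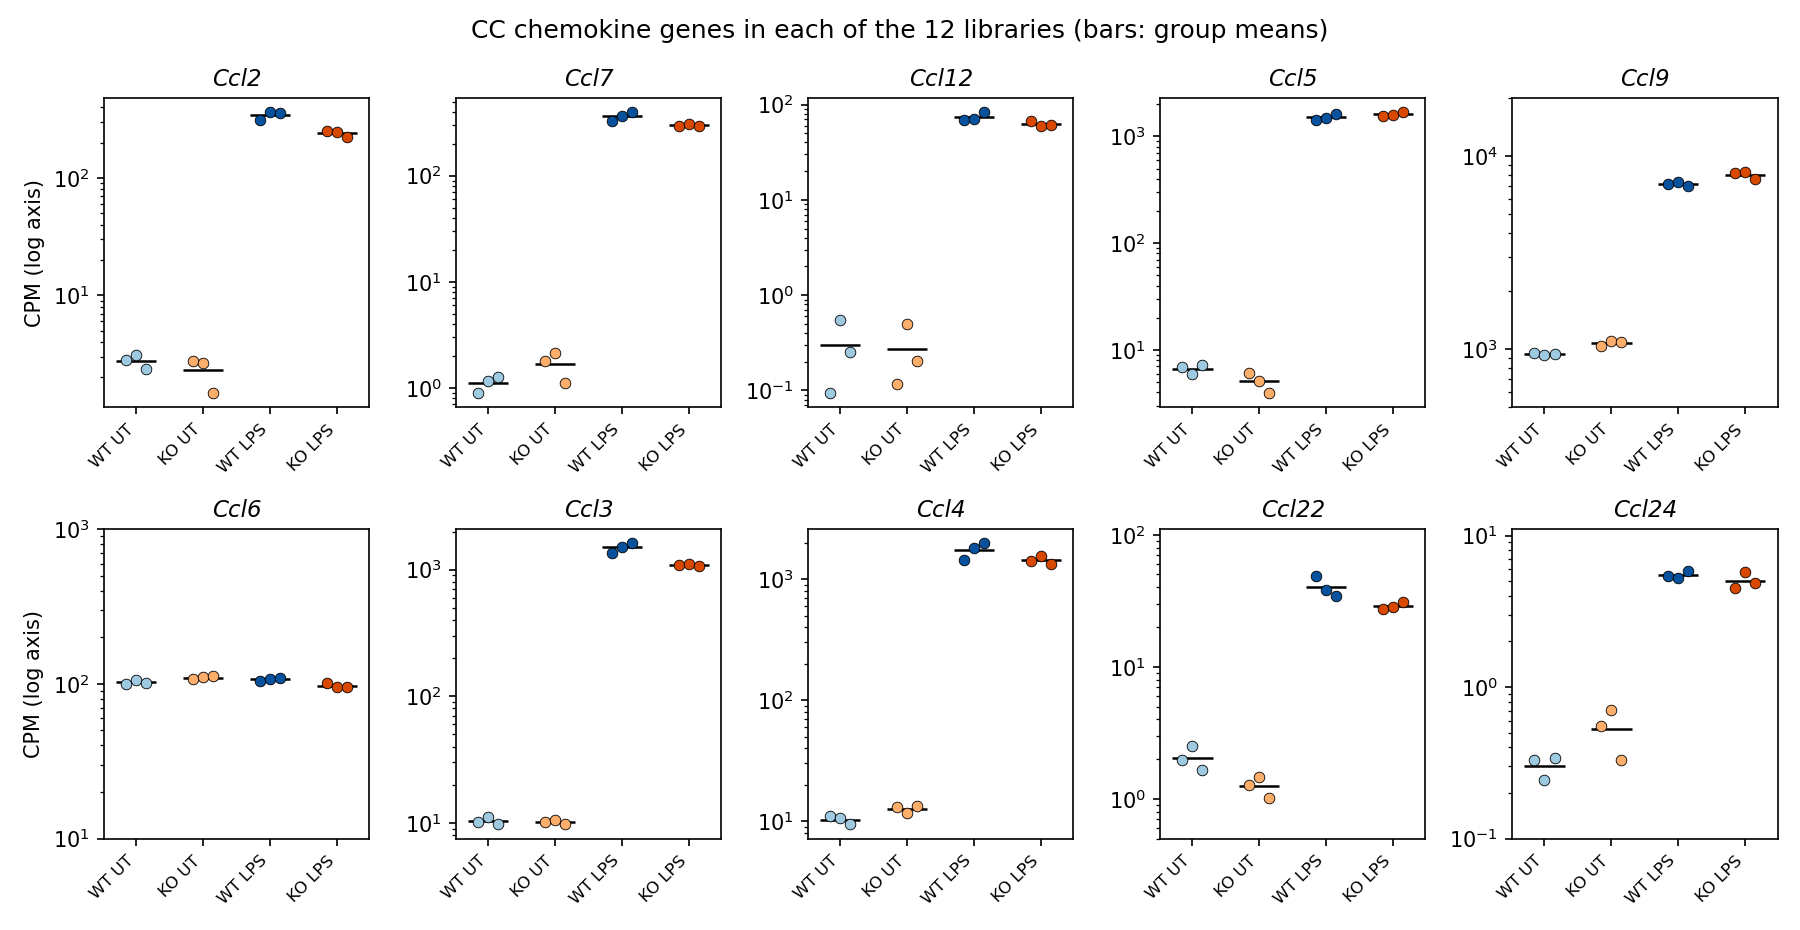
Each panel plots CPM on a log axis for 1 member in the 12 libraries, with points for libraries, bars for group means and a scale of its own. The LPS libraries lie above the UT libraries in 9 panels, whereas Ccl6 stays between 96.0 and 112 CPM throughout.

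**Figure D2:**
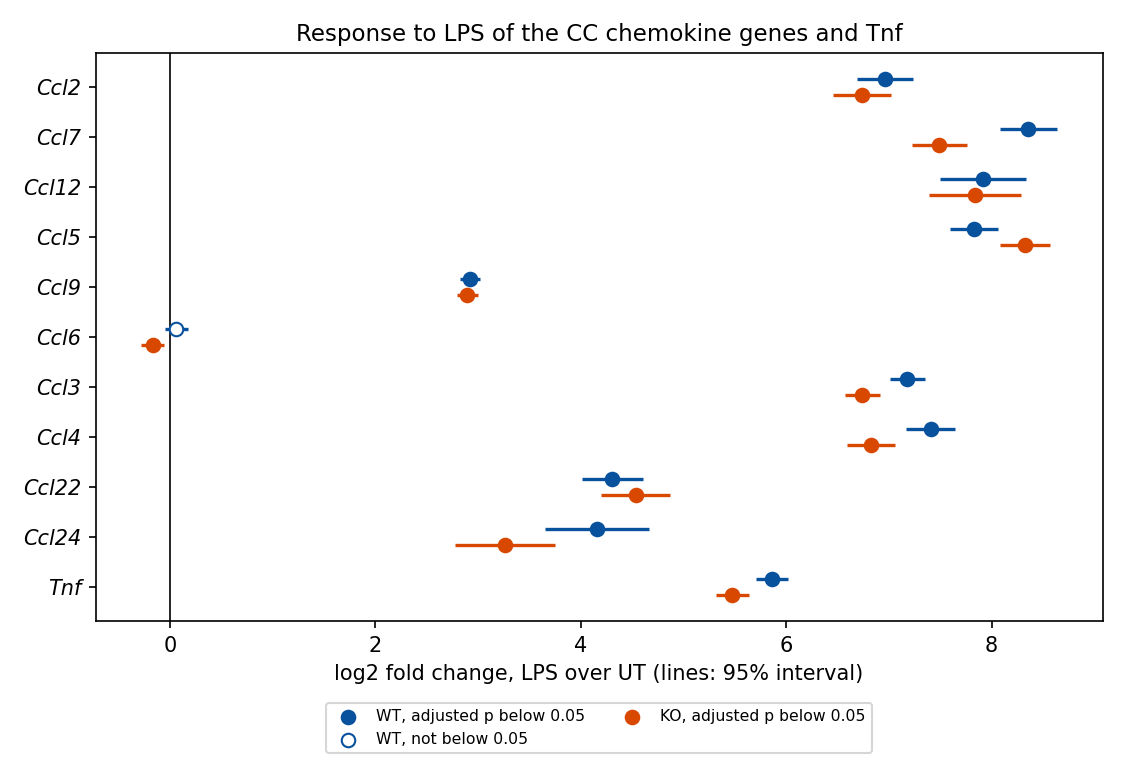
Points show the log2 fold change of LPS over UT for the members and Tnf in WT and KO, and lines the 95% intervals. Apart from Ccl6, near 0, and Ccl9, near 2.9, the members lie between 3.26 and 8.36.

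Levels can be compared between genes only per length, and were taken as CPM per kilobase of merged exons. Without LPS the WT order was Ccl9 at 311, Ccl6 at 57.2, Ccl4 at 15.6, Ccl3 at 13.5, Ccl5 at 6.94, Ccl2 at 2.42, Ccl7 at 1.38, Ccl22 at 0.877, Ccl12 at 0.559 and Ccl24 at 0.234. Of these neighbors, Ccl4 and Ccl3, Ccl22 and Ccl12, and Ccl12 and Ccl24 overlapped between libraries. KO UT had the same order except for Ccl7 and Ccl2, which overlapped and changed places, but not per kilobase of the longest transcript. After LPS the top of the list was crowded. In WT LPS, Ccl4 stood at 2651 ± 408 (SD, n = 3) and Ccl9 at 2357 ± 57.6 (SD, n = 3), which overlapped, followed by Ccl3 at 1955 and Ccl5 at 1580. In KO LPS, Ccl9 at 2632 ± 125 (SD, n = 3) was above Ccl4 at 2185 ± 165 (SD, n = 3), and Ccl5 at 1683 was above Ccl3 at 1417, with no overlap between neighbors. Below them the order was shared by the genotypes, with Ccl7, Ccl2, Ccl12, Ccl6, Ccl22 and Ccl24 at 456, 302, 138, 59.8, 17.3 and 4.24 in WT LPS. The place of Ccl5 also depended on the length used. Per kilobase of its longest protein-coding transcript, of 532 bases against 960 for merged exons, it was at 2851 in WT LPS and 3037 in KO LPS, the highest mean of any member. Together the members took 0.140% of each library's counts in WT UT, 0.136 to 0.146% in KO UT, 1.00 to 1.07% in WT LPS and 1.01 to 1.09% in KO LPS. After TMM scaling their summed CPM was 1079 to 1085 in WT UT, 1179 to 1243 in KO UT, 12258 to 13212 in WT LPS and 12388 to 13284 in KO LPS, so that the genotypes overlapped without LPS as a share of counts but not in CPM, and overlapped after LPS on both scales.

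**Figure D3:**
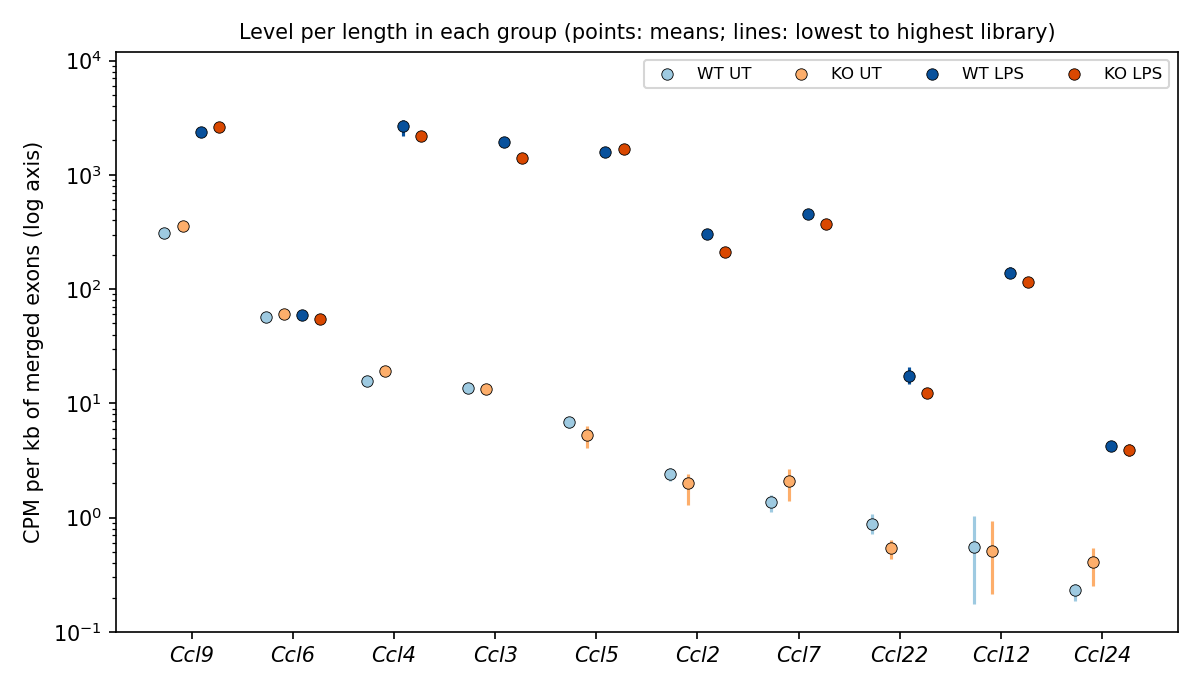
Points show the mean CPM per kilobase of merged exons of each member on a log axis, in the WT UT order, and lines run from the lowest to the highest of the 3 libraries of a group. Ccl6 had 54.4 to 61.1 in every group, whereas Ccl9 went from 311 to 2357 in WT.

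The question that follows from the deletion was whether the members differed between KO and WT after LPS. None of the 10 was called, 6 passed the adjusted p threshold of 0.05, and before adjustment Ccl6 and Ccl12 were below 0.05 as well. DESeq2 also called 0. In bulk samples, fewer cells that express a gene and less RNA per cell cannot be told apart. Over all genes tested, 1.25% were called and 14.3% had an adjusted p below 0.05, with 6.54% of all genes lower and 7.78% higher in KO. The members were lower in 5 cases (Ccl2, Ccl3, Ccl4, Ccl7 and Ccl22) and higher in 1 (Ccl9). The WT LPS and KO LPS libraries did not overlap for 7 members, against 29.1% of all genes. The median log2 fold change was -0.27 over the members and -0.0075 over all genes.

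Ccl2, Ccl3 and Ccl22 were the members with the largest decreases. Ccl2 had 8357, 8121 and 7550 counts in WT LPS and 6609, 6615 and 6163 in KO LPS. In CPM it was at 311, 365 and 356 in WT and 253, 248 and 226 in KO, so every KO library lay below every WT library (log2 difference -0.50 with SE 0.0919, adjusted p 0.000847 by edgeR). Ccl3 was at 1357, 1521 and 1615 CPM in WT and 1091, 1104 and 1061 CPM in KO, again without overlap (log2 difference -0.46 with SE 0.0609, adjusted p 2.83e-05 by edgeR). Ccl22 was at 48.5, 37.9 and 34.4 CPM in WT and 27.3, 28.4 and 30.7 CPM in KO (log2 difference -0.49 with SE 0.112, adjusted p 0.00591 by edgeR). WT LPS replicate 1 was the highest of its group for Ccl22 and the lowest for Ccl2 and Ccl3. Within batches the difference ran from -0.66 to -0.30 for Ccl2, from -0.61 to -0.31 for Ccl3 and from -0.83 to -0.16 for Ccl22. With the share of small structured RNAs as a covariate, the log2 fold changes were -0.31 for Ccl2 (edgeR adjusted p 0.0459), -0.28 for Ccl3 (edgeR adjusted p 0.00265) and -0.80 for Ccl22 (edgeR adjusted p 0.000162). This share was lower in every KO LPS library than in every WT LPS library, so after LPS it cannot be told apart from the genotype. Ccl2, Ccl3 and Ccl22 kept an adjusted p below 0.05 under every alternative that was run.

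Ccl4, Ccl7 and Ccl9 differed by less. Ccl4 was at 1454, 1817 and 1979 CPM in WT and 1422, 1559 and 1345 CPM in KO, so the groups overlapped (log2 difference -0.28 with SE 0.0840, adjusted p 0.0306 by edgeR). With the batch number, which is also the replicate number, as a block, it was -0.28 with an edgeR adjusted p of 0.0571. Ccl7 was at 329, 369 and 398 CPM in WT and 292, 308 and 293 CPM in KO, without overlap (log2 difference -0.29 with SE 0.0841, adjusted p 0.0236 by edgeR). Both genes were lowest in WT LPS replicate 1, the WT LPS library with the smallest share of small structured RNAs, and the part of that share in the result was not tested beyond its use as a covariate. With the covariate the log2 fold change was 0.013 for Ccl4 (edgeR adjusted p 0.956) and -0.064 for Ccl7 (edgeR adjusted p 0.748). Ccl9 was the member that was higher in KO, at 8181, 8282 and 7579 CPM against 7141, 7367 and 7022 CPM in WT (log2 difference 0.16 with SE 0.0444, adjusted p 0.0203 by edgeR).

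Within batches the difference ran from -0.56 to -0.032 for Ccl4, from -0.44 to -0.17 for Ccl7 and from 0.11 to 0.20 for Ccl9. These 3 differences depended on single libraries at the threshold. Leaving out WT LPS replicate 2 or 3, or KO LPS replicate 1 or 3, gave edgeR adjusted p values of 0.0975 to 0.142 for Ccl4 and of 0.0709 to 0.0841 for Ccl7. The log2 fold change of Ccl4 ran from -0.18 without WT LPS replicate 3 to -0.40 without WT LPS replicate 1 (edgeR adjusted p 2.83e-05). For Ccl9, leaving out KO LPS replicate 1 gave 0.0907 and leaving out replicate 2 gave 0.107. Ccl9 also lost the threshold with the small structured RNA covariate (0.13, edgeR adjusted p 0.0831), with protein-coding genes only (0.12, edgeR adjusted p 0.0696) and with only the groups compared (edgeR adjusted p 0.0836), and the last of these gave 0.0836 for Ccl4 too.

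With the design as described, no difference after LPS passed the threshold for Ccl5, Ccl6, Ccl12 and Ccl24. Ccl5 was at 1438, 1501 and 1610 CPM in WT and 1562, 1593 and 1693 CPM in KO, with overlapping libraries (log2 fold change 0.091, 95% interval -0.075 to 0.26, edgeR adjusted p 0.490). The interval of Ccl5 does not reach the decrease of Ccl3, a gene of the same cluster. Ccl12 was at 68.3, 70.8 and 83.4 CPM in WT and 66.9, 59.1 and 60.9 CPM in KO (log2 fold change -0.25, 95% interval -0.48 to -0.019, edgeR adjusted p 0.141). Ccl6 had a log2 fold change of -0.14 (95% interval -0.25 to -0.026, edgeR adjusted p 0.0897). Without WT LPS replicate 1, the edgeR adjusted p was 0.0404 for Ccl12 and 0.0491 for Ccl6. Other settings also brought members past the threshold, Ccl5 with the small structured RNA covariate (0.26, edgeR adjusted p 0.0491) and Ccl12 without a filter (edgeR adjusted p 0.0389). For Ccl6 these were upper-quartile scaling (0.0429), a mean CPM of at least 1 (0.038) and protein-coding genes only (0.0245). In the other direction, Ccl12 was at -0.16 without WT LPS replicate 3 (edgeR adjusted p 0.409). With the small structured RNA covariate it was at -0.030 (edgeR adjusted p 0.935). For Ccl24, with 117 to 153 counts in the 6 libraries, the interval was widest (log2 fold change -0.13, 95% interval -0.51 to 0.26, edgeR adjusted p 0.705).

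The same comparison without LPS gave a mixture of directions. None of the 10 was called. The same was true with DESeq2. At any fold change 5 passed the adjusted p threshold, of which Ccl4, Ccl7 and Ccl9 were higher and Ccl5 and Ccl22 lower in KO. Before adjustment, Ccl24 was below 0.05 too. Over all genes tested, 1.82% were called and 23.8% passed the adjusted p threshold, 14.1% higher and 9.69% lower. The libraries did not overlap for 4 members, against 40.8% of all genes. The members' median log2 fold change was 0.034.

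Ccl22 and Ccl9 were past the adjusted p threshold with the same sign in both treatments. Ccl22 was at 1.96, 2.49 and 1.66 CPM in WT UT and 1.27, 1.47 and 1.01 CPM in KO UT, without overlap (log2 difference -0.71 with SE 0.209, adjusted p 0.0154 by edgeR). Its adjusted p was 0.104 without WT UT replicate 2 and 0.0921 without KO UT replicate 3. Ccl9 was at 951, 937 and 950 CPM in WT UT and 1036, 1097 and 1096 CPM in KO UT (log2 difference 0.19 with SE 0.0445, adjusted p 0.00358 by edgeR). Under RLE scaling, a different normalization of library size, it was 0.11 with an edgeR adjusted p of 0.0608. Within batches the difference was -0.74 to -0.60 for Ccl22 and 0.12 to 0.23 for Ccl9.

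Ccl4 and Ccl7 were higher in KO UT and lower in KO LPS than in WT, and Ccl5 was lower in KO UT. Ccl4 was at 9.40 to 10.9 CPM in WT UT and 11.7 to 13.4 CPM in KO UT, without overlap (log2 difference 0.30 with SE 0.103, adjusted p 0.0373 by edgeR). With the replicate block its adjusted p was 0.0541, and it was 0.0674 to 0.165 without WT UT replicate 2 or 3 or KO UT replicate 1 or 3. Other settings also ended it, with 0.095 under DESeq2, 0.106 under RLE scaling and 0.074 under upper-quartile scaling. Ccl7 had 38, 53 and 59 counts in WT UT and 62, 72 and 44 in KO UT, and its CPM values overlapped (log2 difference 0.57 with SE 0.197, adjusted p 0.0392 by edgeR). Leaving out WT UT replicate 1 or 2 or KO UT replicate 1 or 2 gave adjusted p values of 0.0695 to 0.249. The log2 fold change ran from 0.37 without KO UT replicate 2 to 0.81 without KO UT replicate 3 (edgeR adjusted p 0.00196). RLE scaling, upper-quartile scaling and only the groups compared gave adjusted p values of 0.0649, 0.0605 and 0.119. Ccl5 was at 6.85, 5.89 and 7.23 CPM in WT UT and 6.13, 5.14 and 3.92 CPM in KO UT (log2 difference -0.40 with SE 0.114, adjusted p 0.0122 by edgeR). KO UT replicate 3 was the lowest library for Ccl5, and without it the log2 fold change was -0.24 (edgeR adjusted p 0.107), whereas leaving out WT UT replicate 3 gave -0.34 (edgeR adjusted p 0.0714). Within batches the ranges were 0.14 to 0.51 for Ccl4, -0.16 to 0.96 for Ccl7 and -0.87 to -0.16 for Ccl5, so that Ccl7 was of the opposite sign in 1 batch.

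The remaining members were not past the threshold without LPS. Ccl3 was at 9.70 to 11.2 CPM in WT UT and 9.79 to 10.6 CPM in KO UT (log2 fold change -0.028, 95% interval -0.19 to 0.13, edgeR adjusted p 0.838). Ccl2 had a log2 fold change of -0.28 (95% interval -0.64 to 0.074, edgeR adjusted p 0.264), and Ccl6 of 0.10 (edgeR adjusted p 0.202). That of Ccl2 was -0.023 without KO UT replicate 3 (edgeR adjusted p 0.94) and -0.44 without KO UT replicate 1 (edgeR adjusted p 0.129). Ccl12 and Ccl24, with at most 25 counts in any UT library, had intervals of -1.23 to 0.88 and 0.11 to 1.43, with edgeR adjusted p values of 0.851 and 0.0873, so that at this depth the size of a difference was poorly resolved. KO UT had a higher share of small structured RNAs than WT UT in every library. In UT cells, as after LPS, this share and the genotype cannot be told apart. With it as a covariate, 4 of the 5 members past the threshold lost it, with Ccl22 at -0.051 (edgeR adjusted p 0.954), Ccl7 at 0.11 (edgeR adjusted p 0.851), Ccl4 at -0.27 (edgeR adjusted p 0.353) and Ccl9 at 0.24 (edgeR adjusted p 0.0787). Ccl5 stayed past it at -0.74 (edgeR adjusted p 0.00426), and Ccl3 came past it at -0.39 (edgeR adjusted p 0.0344). Ccl2 was at -0.67 (edgeR adjusted p 0.0677), and Ccl6, Ccl12 and Ccl24 kept their sign with adjusted p values of 0.575 to 0.848. Summed markers of macrophages, stromal cells, neutrophils, T cells, B cells and of eosinophils, basophils and mast cells were also higher in KO UT, without overlap, as given above. In KO LPS the same held for those of macrophages, of stromal cells, of B cells and of eosinophils, basophils and mast cells, and their part in the differences between the genotypes was not tested.

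**Figure D4:**
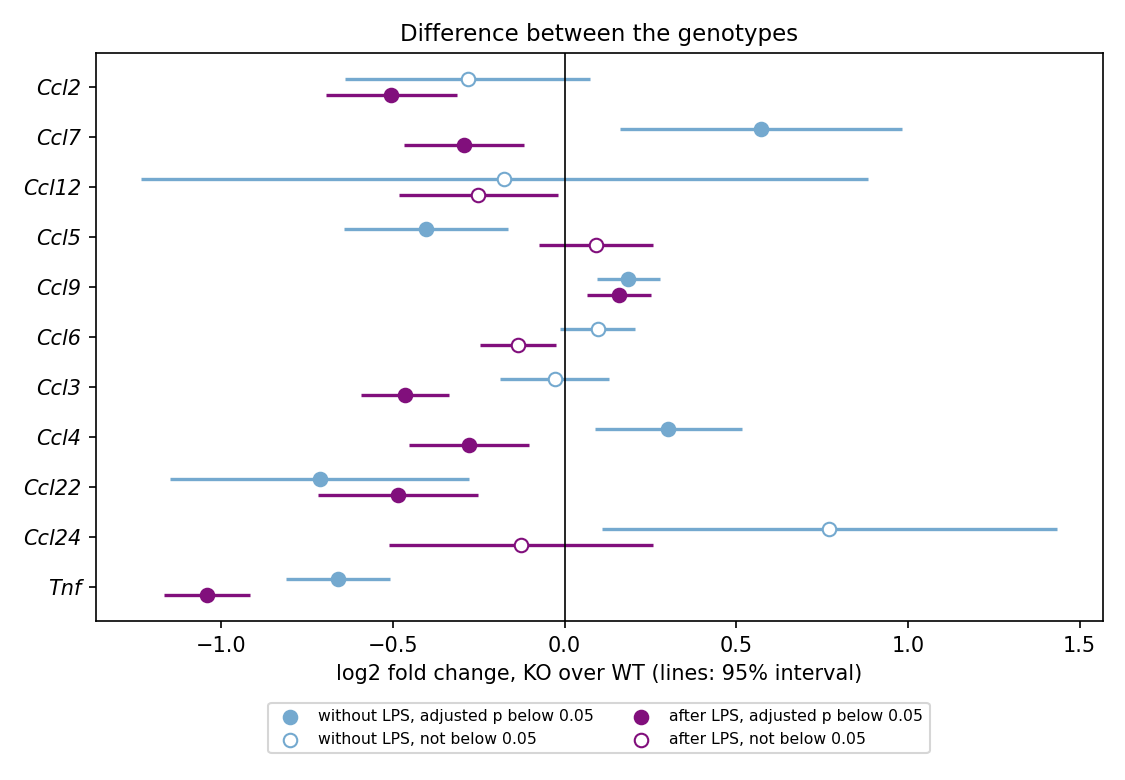
Points show the log2 fold change of KO over WT for the members and Tnf without and after LPS, and lines the 95% intervals, with filled points where the edgeR adjusted p is below 0.05. After LPS the members lie between -0.50 and 0.16, whereas Tnf is at -1.04.

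Whether the response to LPS itself differed between the genotypes was tested by the interaction of genotype and LPS, the log2 response of KO minus that of WT. None of the 10 members was called, by edgeR or by DESeq2, and 5 passed the adjusted p threshold of edgeR. Before adjustment, Ccl24 was also below 0.05. Over all genes tested, 2.16% were called and 16.8% passed the adjusted p threshold, 7.32% higher and 9.50% lower. The response of KO was smaller for Ccl7 (-0.87, SE 0.215, edgeR adjusted p 0.00765), Ccl4 (-0.58, SE 0.133, edgeR adjusted p 0.00421) and Ccl3 (-0.44, SE 0.0976, edgeR adjusted p 0.00357). It was larger for Ccl5 (0.49, SE 0.139, edgeR adjusted p 0.0176). For Ccl6, which rose in neither genotype, the difference was -0.23 (SE 0.0740, edgeR adjusted p 0.0350), and with the replicate block its adjusted p was 0.0640. It was also past the threshold neither under DESeq2 (-0.15, adjusted p 0.107) nor under RLE scaling (-0.15, edgeR adjusted p 0.164) nor without a filter (-0.20, edgeR adjusted p 0.209). Ccl2 and Ccl22, which were lower in KO after LPS, had interactions of -0.22 (95% interval -0.63 to 0.18, edgeR adjusted p 0.491) and 0.23 (95% interval -0.27 to 0.72, edgeR adjusted p 0.575). With single libraries left out, these ran from -0.48 to -0.062 for Ccl2 and from 0.056 to 0.39 for Ccl22.

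Several of these terms depended on single libraries, and the UT counts of Ccl7 and Ccl24 were low. For Ccl7 the interaction was -0.66 without KO UT replicate 2 (edgeR adjusted p 0.0567) and -1.11 without KO UT replicate 3 (edgeR adjusted p 0.000459), which made it a call. Ccl24 was called in the same setting (-1.16, edgeR adjusted p 0.0319), and Ccl2 passed the adjusted p threshold (-0.48, edgeR adjusted p 0.0466). For Ccl5 the adjusted p was 0.0672 without WT UT replicate 3 and 0.0663 without KO UT replicate 3. The adjusted p of Ccl6 was 0.0547 to 0.0921 when any of 8 libraries was left out, namely WT UT replicates 1 and 3, KO UT replicates 2 and 3, WT LPS replicates 2 and 3, and KO LPS replicates 2 and 3. With the small structured RNA share as a covariate, the interactions of Ccl3, Ccl4, Ccl6 and Ccl7 had adjusted p values of 0.630 to 0.843, and that of Ccl5 was 1.00 (edgeR adjusted p 0.0183).

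Other genes of the chemokine system were read from lists. Of 14 other CC ligands, 4 passed the filter (Ccl8, Ccl17, Ccl25 and Ccl27a), and Ccl8 was called between the genotypes. Ccl8, another monocyte chemoattractant, had 0, 2 and 9 counts in WT UT and 20, 15 and 18 in KO UT (log2 difference 2.54 with SE 0.537, adjusted p 0.00126 by edgeR). With LPS the counts of WT were 185, 161 and 192, and those of KO 246, 300 and 201 (log2 fold change 0.28, edgeR adjusted p 0.394). Its interaction was -2.26 (edgeR adjusted p 0.00999). Ccl25 and Ccl27a had no genotype difference past the threshold in either treatment. Ccl17, a further Ccr4 ligand, had 0 counts in all 6 UT libraries, 41, 49 and 69 counts in WT LPS and 30 counts in each KO LPS library, a difference that did not pass the threshold (log2 fold change -1.04, edgeR adjusted p 0.0709).

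Of 16 CC receptors and receptor-like genes, 8 passed the filter and 0 were called between the genotypes. After LPS, 3 were higher and 1 lower in KO with an edgeR adjusted p below 0.05, against 7.78% and 6.54% of all genes. Ccr2, the receptor of Ccl2, Ccl7 and Ccl12, was at 56.9 ± 7.07 CPM (SD, n = 3) in WT LPS and 87.3 ± 6.39 CPM (SD, n = 3) in KO LPS (log2 fold change 0.62, edgeR adjusted p 2.3e-05). Without LPS it was lower in KO, at 158 ± 9.48 CPM against 199 ± 10.1 CPM in WT (each SD, n = 3), which is -0.33 on the log2 scale (edgeR adjusted p 0.00247). Ccrl2, which binds chemerin, was lower in KO after LPS (log2 fold change -0.39, edgeR adjusted p 5.7e-05).

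Among 26 genes of signalling downstream of chemokine receptors, all 26 were tested, and 1 was called after LPS. This was Rgs1, a regulator that shortens G protein signalling, at 62.3 ± 1.74 CPM (SD, n = 3) in WT LPS and 29.6 ± 1.38 CPM (SD, n = 3) in KO LPS (log2 fold change -1.07, edgeR adjusted p 3.25e-10). Its interaction was also called (-1.14). At any fold change, 8 of the 26 were higher and 2 lower in KO after LPS, against 7.78% and 6.54% of all genes, and 3 were higher and 7 lower without LPS, against 14.1% and 9.69%. The most abundant of them were Rap1b, Pik3r5 and Dock2, with log2 fold changes after LPS of 0.41, -0.020 and 0.11.

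Finally, the gene with the most similar profile was sought for the members among 9076 protein-coding genes whose mean CPM was 5 or more. The members themselves were not among these candidates. Likeness was the Euclidean distance between the 4 group means of log2 CPM, each profile being centered on its own mean. The closest profile was that of Ccl6 and Oma1, at a distance of 0.0217, both being nearly level. Ccl5 was nearest to Bcl2a1a (0.0813), Ccl9 to Lmo4 (0.106), Ccl12 to Il1b (0.121) and Ccl22 to Tnfsf9 (0.141). Col27a1 was the nearest candidate of both Ccl2 (0.146) and Ccl3 (0.303), Edn1 that of Ccl7 (0.234) and Hcar2 that of Ccl4 (0.235). Among the members themselves, Ccl2 and Ccl3 were the closest pair, at 0.230, although they lie in different clusters. Ccl6 was 2.97 away from its nearest member, Ccl9. These distances describe 4 group means and have no test.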

How the data were processed

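Total RNA libraries were prepared with a stranded kit with globin depletion and sequenced as paired-end reads. The authors aligned reads to GRCm38 with HISAT2 2.1.0 and counted them per gene with featureCounts 2.0.0. The deposited values are these raw counts. How multi-mapping reads were treated, whether strand was used and which annotation release was taken is not given in the sources used here, and if strand was ignored, a gene cannot be told from its antisense partner.

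Identifiers were matched to GENCODE symbols for 48144 genes, and 382 were not matched. All 12 libraries entered 1 model of group means in edgeR 4.0.16 (quasi-likelihood test, TMM scaling, R 4.3.3, limma 3.58.1). filterByExpr (minimum count 10, minimum total 15) kept 15523 genes. P-values were adjusted by Benjamini-Hochberg over all genes kept, and calls followed the criteria of the study. The tests were checked on simulated counts. CPM are TMM-scaled. DESeq2 1.42.0 was an alternative, as were other scalings, filters, gene sets, a replicate block, a small structured RNA covariate and leaving out each library. Figures were drawn with matplotlib.

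The labels give each library a batch number equal to its replicate number, which pairs the libraries. Deviations from group means of the 18 pairs had r from -0.0631 to 0.0373, and a batch term gave 0 genes with an adjusted p below 0.05. Replicate pairs differed by more than counting noise. The chi-squared statistic per degree of freedom, larger for a wider spread, was 16.4, 43.7 and 11.7 for the pairs of WT LPS. In the other groups it ran from 3.77 to 13.7. The labels do not say whether replicates were separate animals, so p-values measure the spread between libraries, which may be technical. Counts without molecular identifiers are not independent molecules.

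Members, gene lists and tests were chosen with earlier results of these data known. The named genes were all members, Tnf, for each list the 3 genes of highest mean CPM and those called by genotype or interaction, and the gene nearest to each member outside the members. Ccl17 was named after its values were seen. Of the genes this rule selects, 2 are not reported here.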

Additional observations from a re-analysis of the deposited data

Results flagged for a closer look

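The response to LPS differed between KO and WT for 5 members at an edgeR adjusted p below 0.05, as a test of the difference itself, against 16.8% of all genes. The difference, KO minus WT on the log2 scale, was -0.44 for Ccl3, -0.58 for Ccl4, -0.87 for Ccl7 and -0.23 for Ccl6. For Ccl5 it was 0.49, in the other direction. With the small structured RNA share as a covariate, 4 of the 5 lost the threshold, the exception being Ccl5, and the sign turned for Ccl3 (0.11) and Ccl4 (0.28). Groups of 3 libraries are too small for a test of single outlying libraries, and none was run.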

How the results depend on the processing

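The counts of members called after LPS in WT and KO stayed at 9 or 10 of 10 under every alternative. Without a fold change minimum, 6 members passed for KO against WT after LPS, 5 without LPS and 5 for the interaction, in place of 0 each. Leaving out single libraries gave 0 to 1 member called without LPS (Ccl24 without KO UT replicate 3, 1.04) and 0 to 2 for the interaction. The replicate block changed no call or threshold other than those of Ccl4 in either treatment (-0.28 and 0.30) and of the Ccl6 interaction (-0.23). Of 850 values for single members, 759 kept their direction and side of the threshold, 57 lost the threshold, 12 gained it and 22 turned sign. With the small RNA share as a covariate, the sign turned for Ccl4 (0.013) and Ccl24 (0.051) after LPS, for Ccl4 without LPS (-0.27), and for the interactions of Ccl2 (0.36), Ccl3 (0.11), Ccl4 (0.28), Ccl12 (0.59) and Ccl22 (-0.75), none with an adjusted p below 0.05, and the cause was not tested. Upper-quartile scaling turned Ccl6 in WT (-0.12). The Ccl9 interaction turned with DESeq2 (0.056), RLE scaling (0.053), no filter (0.0041) and without KO LPS replicate 3 (0.012, the range over libraries left out being -0.049 to 0.012). The Ccl12 interaction turned with RLE scaling (0.0028) and without WT UT replicate 1 (0.32), WT UT replicate 3 (0.041), KO UT replicate 2 (0.64) or WT LPS replicate 3 (0.016), with a range of -0.83 to 0.64. Without LPS, Ccl12 turned without WT UT replicate 2 (0.58), KO UT replicate 1 (0.16) or KO UT replicate 3 (0.014), with a range of -0.89 to 0.58, and Ccl3 without WT UT replicate 2 (0.034), with a range of -0.073 to 0.034. Depth limits Ccl12 and Ccl24 most, with at most 25 counts in any UT library.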
